A study of Mus musculus with 3 samples.

Results

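The 7 genes described here are those that place glutamate or GABA in a nerve cell or clear GABA beside it: the vesicular glutamate transporters Slc17a7 (VGLUT1), Slc17a6 (VGLUT2) and Slc17a8 (VGLUT3), the glutamate decarboxylases Gad1 (GAD67) and Gad2 (GAD65), the vesicular GABA transporter Slc32a1 (VGAT), and the plasma membrane GABA transporter Slc6a11 (GAT3). They were chosen by gene symbol, with no measured value in the rule, and are 7 of the 32285 genes listed in each count matrix. Cells of the mouse medial prefrontal cortex (mPFC), a frontal area of the cerebral cortex, were dissociated with papain and profiled by droplet single-cell RNA sequencing, which counts unique molecular identifiers (UMIs, one per captured RNA molecule) at the 3′ end of transcripts. There were 3 libraries: females in estrus, the receptive stage of the cycle, females in diestrus, a non-receptive stage, and males. Each library pooled 2 mice that cannot be separated, and each group had 1 library, so a ratio between groups has no replicate check and no test was run. The labels give no transgene, drug or surgery for any group, and the labels state neither strain nor age.

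Glutamate and GABA are the main excitatory and inhibitory transmitters of the cortex. Vesicular glutamate transporters load glutamate into synaptic vesicles, and excitatory neurons of the cortex mostly use VGLUT1 while those of the thalamus and brainstem mostly use VGLUT2. Inhibitory neurons make GABA from glutamate with GAD67 and GAD65, load it with VGAT, and GABA that leaves the synapse is taken up by plasma membrane transporters, with GAT3 found mainly on astrocytes.

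The labels call the cells neurons, but cells of every type were in the matrices, and glutamatergic and GABAergic neurons together were 12.2% of the 12298 retained estrus cells, 14.0% of the 14129 diestrus cells and 12.9% of the 15565 male cells. These shares leave out a cluster with few UMIs per cell, of 140 estrus, 2307 diestrus and 1686 male cells. By markers it was closest to glutamatergic neurons, but it was left unnamed. Names of groups stand for clusters that resembled a type by marker genes, with none of the 7 genes used to cluster or to name. Glutamatergic-like neurons (1356 cells in estrus, 1739 in diestrus and 1736 in male) held all 8 of their markers, GABAergic-like neurons (142, 240 and 266 cells) all 9, and oligodendrocyte precursors (OPCs, 155, 215 and 223 cells) all 6. Astrocyte-like cells numbered 1394, 1049 and 1887. Depth differed between libraries, with medians of 37392, 25445 and 11017.5 UMIs per glutamatergic neuron and 23539, 15156.5 and 12297 per GABAergic neuron. The 14476, 18052 and 19555 barcodes overlapped little: 81 were shared by estrus and diestrus, 68 by estrus and male, and 97 by diestrus and male. Unless stated otherwise, levels are CPM, a gene's UMIs per 1000000 UMIs of nuclear genes, summed over the cells of a group in 1 library, given in the order estrus, diestrus and male. A CPM sum does not tell fewer expressing cells from less RNA per cell, so shares of cells with a UMI are given beside it. All intervals are 95% intervals, exact Poisson for a level, exact Clopper-Pearson for a share and exact conditional binomial for a ratio, and they cover counting error only.

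Promoters are shown for the 3 genes of GABA synthesis and loading, whose levels followed each other most closely over cell groups, and for Slc17a7, the gene that marked the other neuron class. Each run is 300 bases from RefSeq on build GRCm38.p6, plus strand, from 250 bases before the start of transcription to 50 after it. Of the 4 motifs searched on both strands (the TATA box TATAAA, the homeodomain core TAATTA, and the E-boxes CAGATG and CAGCTG, none of which overlap here), capitals mark every match.
Gad1: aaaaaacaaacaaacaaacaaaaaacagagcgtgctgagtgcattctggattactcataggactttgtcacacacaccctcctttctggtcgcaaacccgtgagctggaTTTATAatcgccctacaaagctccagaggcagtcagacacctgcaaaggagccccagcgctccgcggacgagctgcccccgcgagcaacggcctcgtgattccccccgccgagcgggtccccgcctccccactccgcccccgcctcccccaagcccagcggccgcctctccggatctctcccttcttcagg
Gad2: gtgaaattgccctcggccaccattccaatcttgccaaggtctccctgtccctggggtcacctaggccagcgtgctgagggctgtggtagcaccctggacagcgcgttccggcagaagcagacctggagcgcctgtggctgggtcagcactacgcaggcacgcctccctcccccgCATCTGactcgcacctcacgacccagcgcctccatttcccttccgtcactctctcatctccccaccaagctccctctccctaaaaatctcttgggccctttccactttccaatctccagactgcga
Slc32a1: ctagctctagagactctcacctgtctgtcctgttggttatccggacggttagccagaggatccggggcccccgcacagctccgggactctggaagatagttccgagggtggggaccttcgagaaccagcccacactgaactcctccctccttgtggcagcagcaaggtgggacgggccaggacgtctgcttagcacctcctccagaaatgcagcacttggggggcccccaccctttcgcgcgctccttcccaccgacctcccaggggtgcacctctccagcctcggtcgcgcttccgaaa
Slc17a7: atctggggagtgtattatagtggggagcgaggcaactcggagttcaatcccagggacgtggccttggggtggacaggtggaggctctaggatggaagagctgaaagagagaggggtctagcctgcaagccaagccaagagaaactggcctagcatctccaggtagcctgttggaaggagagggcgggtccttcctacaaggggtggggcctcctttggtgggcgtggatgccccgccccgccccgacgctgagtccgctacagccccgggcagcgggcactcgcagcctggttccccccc
The Gad1 run (chr2:70561879-70562178) held 1 TATAAA, written on the opposite strand as TTTATA, a motif found in 13.6% of 32851 promoters of this length. The Gad2 run (chr2:22622077-22622376) held 1 CAGATG, written as CATCTG, a motif found in 17.2% of promoters. Neither the Slc32a1 run (chr2:158610508-158610807) nor the Slc17a7 run (chr7:45163671-45163970) held a match, and TAATTA and CAGCTG, in 5.29% and 16.3% of promoters, were in none of the 4. The 4 runs were rich in G and C, at 60%, 61.3%, 63.3% and 63.7% in the order printed, against a median of 52.7% over all promoters, and held 21, 14, 17 and 13 CpG pairs against a median of 7. No motif of the 4 was in more than 1 of the runs.

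By the GENCODE annotation of mm10, Slc17a7 lies at chr7:45163949-45176142 and Slc17a6 at chr7:51622006-51671119, both on the plus strand, and Slc17a8 at chr10:89574020-89621253 on the minus strand. Gad1 (chr2:70553072-70602014), Gad2 (chr2:22622205-22693874) and Slc32a1 (chr2:158610767-158615748) are all on the plus strand of chromosome 2. Slc6a11 lies at chr6:114131241-114249952, plus strand. The labels and headers do not state whether counting used strand. Gad1 overlaps the antisense gene Gad1os and Slc32a1 the antisense gene Gm14205, so reads of those pairs may not have been told apart.

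Slc17a7 marked the glutamatergic class as a whole. Summed over this class it stood at 584, 572 and 549 CPM, on 29939, 27601 and 15800 UMIs. It was detected in 99.6%, 97.4% and 94.8% of these neurons, and in 81.8%, 79.4% and 75.2% when each cell was thinned to 3000 UMIs, with shallower cells left out. Thinning left out 9, 47 and 108 glutamatergic neurons, 3, 15 and 35 GABAergic neurons, 200, 296 and 766 astrocytes, 7, 18 and 32 OPCs and 279, 524 and 1084 microglia. Microglia, immune cells that should lack the transporter, held 25.1, 64.1 and 88.4 CPM of Slc17a7, and 12.1%, 23.9% and 23.2% of them had a UMI. GABAergic neurons, at 7.29, 22.2 and 14.7 CPM, were below microglia in every library, so their Slc17a7 lay at or under the level of free RNA. Over 6 classes (microglia, endothelial cells, pericytes, smooth muscle, border macrophages and oligodendrocytes) this free RNA level of Slc17a7 ranged from 14.6 to 32.5 CPM in estrus, from 31.9 to 96.1 in diestrus and from 42.0 to 106 in male, lowest in estrus.

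Among the glutamatergic subclasses, which are named for cortical layer and projection (intratelencephalic, IT; extratelencephalic, ET; corticothalamic, CT; near-projecting, NP), Slc17a7 was high in all and lowest in L5/6 NP. L5/6 NP-like neurons (75, 219 and 142 cells) held 352, 329 and 323 CPM, and in every library this interval lay below that of the next subclass. The subclass above it was L5 ET at 489, 471 and 484 CPM or L2/3 IT at 498, 456 and 452 CPM, and these 2 were neighbours whose order differed between libraries. L6 CT (678, 599 and 630 CPM), L6 IT (686, 545 and 544 CPM) and L4/5 IT (676, 804 and 721 CPM) were higher. A sub-cluster led by Tnnc1 that matched no subclass was at 572, 615 and 543 CPM, and L6b, found with 26 diestrus and 22 male cells and none in estrus, held 627 and 656 CPM. L4/5 IT rested on 3 of 6 markers at 20 CPM or more, the fewest of any named subclass.

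**Figure D1:**
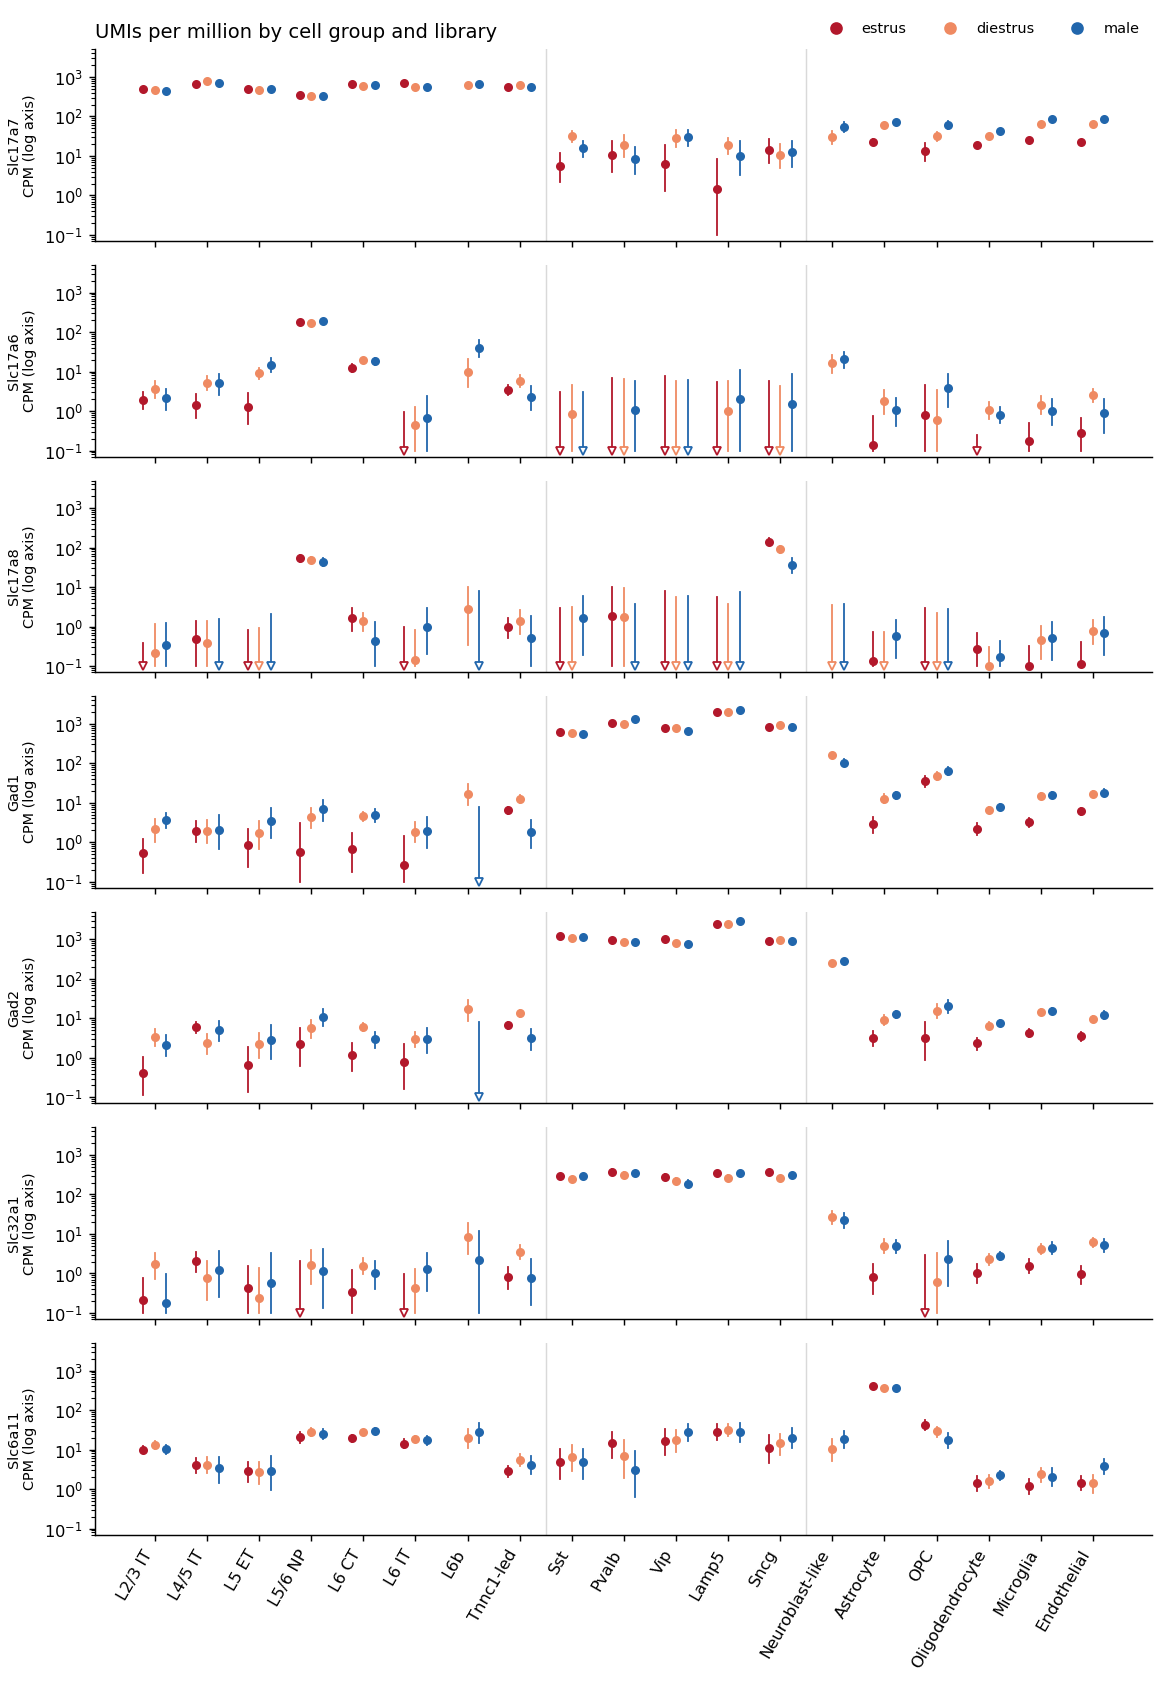
Level of each gene (CPM, log axis, 1 panel per gene) in estrus (red), diestrus (orange) and male (blue), with 95% Poisson intervals. Groups drawn are the neuron subclasses, neuroblast-like cells, astrocytes, OPCs, oligodendrocytes, microglia and endothelial cells, where a library had at least 10 cells. Open triangles are groups with 0 UMIs, drawn at 0.1. Slc17a7 is high in every glutamatergic subclass, Slc17a6 and Slc17a8 peak in L5/6 NP or Sncg, Gad1, Gad2 and Slc32a1 in GABAergic subclasses and Slc6a11 in astrocytes.

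Slc17a6 was concentrated in L5/6 NP, the subclass with the least Slc17a7. L5/6 NP neurons held 180, 168 and 196 CPM of Slc17a6 (325, 512 and 346 UMIs), while L6 CT held 12.6, 19.5 and 18.1 CPM and L6 IT 0, 0.43 and 0.66 CPM. Microglia held 0.17, 1.46 and 1.03 CPM. A UMI of Slc17a6 was found in 86.7%, 58.4% and 59.9% of L5/6 NP neurons, an order that followed depth. After thinning to 3000 UMIs the shares were 37.0%, 33.7% and 37.3%, against 0.0668%, 0.412% and 0.219% of thinned microglia. The highest count in 1 NP neuron was 14, 14 and 19 UMIs.

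L5/6 NP neurons carried both transporters rather than one in place of the other. The ratio of Slc17a6 UMIs to Slc17a7 UMIs there was 0.51, 0.51 and 0.61, against 0.019, 0.033 and 0.029 in L6 CT, for the same pair of genes. In thinned NP neurons both were seen in 21.9%, 24.5% and 26.3% of cells, and the product of the shares of each gene was 25.3%, 22.7% and 22.4%. The shares seen were thus near the product, lower than it in estrus and higher in diestrus and male. Within L6 CT, Slc17a6 differed between sub-clusters: 1 sub-cluster (8, 95 and 56 cells) held 21.5, 37.9 and 34.8 CPM, and the most numerous (182, 294 and 191 cells) 11.9, 13.3 and 12.7 CPM. The first of these made up 6.17%, 26.3% and 22.2% of L6 CT UMIs. In L5 ET neurons Slc17a6 was sparse, with 6, 37 and 26 UMIs in 3, 21 and 17 cells and no cell above 4 UMIs. That is 1.3, 9.03 and 15.0 CPM, and L6b held 9.93 and 39.1 CPM in diestrus and male.

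Over the whole glutamatergic class Slc17a6 was at 9.43, 18.5 and 19.3 CPM, lower in estrus than in both other libraries. On the log2 scale with 1 CPM added, estrus over diestrus was -0.90 (interval -1.14 to -0.81) and estrus over male -0.96 (-1.21 to -0.86). The share of NP neurons moved with it: they were 5.53%, 12.6% and 8.18% of glutamatergic cells and 3.47%, 6.29% and 6.06% of the class's UMIs, and they held 67.1%, 57.3% and 62.2% of its Slc17a6 UMIs. Within L5/6 NP the log2 ratios were 0.11 for estrus over diestrus, -0.12 for estrus over male and -0.22 for diestrus over male. With the subclasses weighted alike in each library the ratios were -0.07, -0.24 and -0.32. L6b, absent in estrus, entered only the last of these, so that ratio rests on another set of subclasses. The lower class level in estrus was not seen at that size within NP, nor when the subclasses had equal weight. In that equal weighting NP, with the highest level, counted most. L6 CT was also lower in estrus, at 12.6 CPM (interval 9.92 to 15.8) against 19.5 and 18.1, and L5 ET, at 1.3 against 9.03 and 15.0. L4/5 IT (1.45, 5.13 and 5.03 CPM), L2/3 IT (1.90, 3.61 and 2.12 CPM) and L6 IT (0, 0.43 and 0.66 CPM) were lowest in estrus too, on few UMIs. Neither NP nor the Tnnc1-led sub-cluster, the latter at 3.45, 5.88 and 2.33 CPM, was lowest in estrus. The part of the NP share in the class ratio was not tested. With cells assigned 1 by 1 on marker UMIs, the class ratios were -0.94 over diestrus and -0.57 over male.

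Slc17a8 appeared in a pair of places, one glutamatergic and one GABAergic. L5/6 NP neurons held 54.4, 49.7 and 44.1 CPM (98, 152 and 78 UMIs), and no other glutamatergic subclass exceeded 2.84 CPM in any library. A UMI was found in 40%, 29.2% and 27.5% of NP neurons and in 19.2%, 11.2% and 11% of those thinned to 3000 UMIs, against at most 0.163% of microglia. NP neurons held 76.6%, 82.6% and 86.7% of the Slc17a8 UMIs of the glutamatergic class. Of the NP sub-clusters, 1 held 63.8, 69.1 and 58.7 CPM of Slc17a8 and another 29.9, 21.1 and 21.6. Their Slc17a6 values ran the other way, at 169, 155 and 190 CPM against 210, 186 and 204, but were closer together, most so in male. These sub-clusters had 58, 163 and 109 cells or 17, 56 and 33 cells. Whether their Slc17a6 levels differed was not tested.

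In the GABAergic class, Slc17a8 belonged to a few cells of the Sncg subclass, a group of cortical interneurons that includes cholecystokinin cells. Sncg-like neurons held 143, 90.4 and 35.5 CPM, but on 89, 76 and 23 UMIs in 3 of 17 estrus cells, 5 of 33 diestrus cells and 3 of 37 male cells. The shares with a UMI were 17.6% (interval 3.80% to 43.4%), 15.2% (5.11% to 31.9%) and 8.11% (1.70% to 21.9%), and the intervals overlapped. The estrus cells held 41, 35 and 13 UMIs, the diestrus cells 30, 20, 15, 8 and 3, and the male cells 12, 9 and 2. These 11 cells held 188 of the 192 Slc17a8 UMIs of all GABAergic neurons, and the other 4 UMIs were in 4 cells, 2 Sst and 2 Pvalb. All 11 had Gad1, 10 had Gad2 and 10 had Slc32a1, while Slc17a7 was seen in 1 of them with 1 UMI. Their doublet scores reached at most 0.144, under the limit of 0.3.

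**Figure D2:**
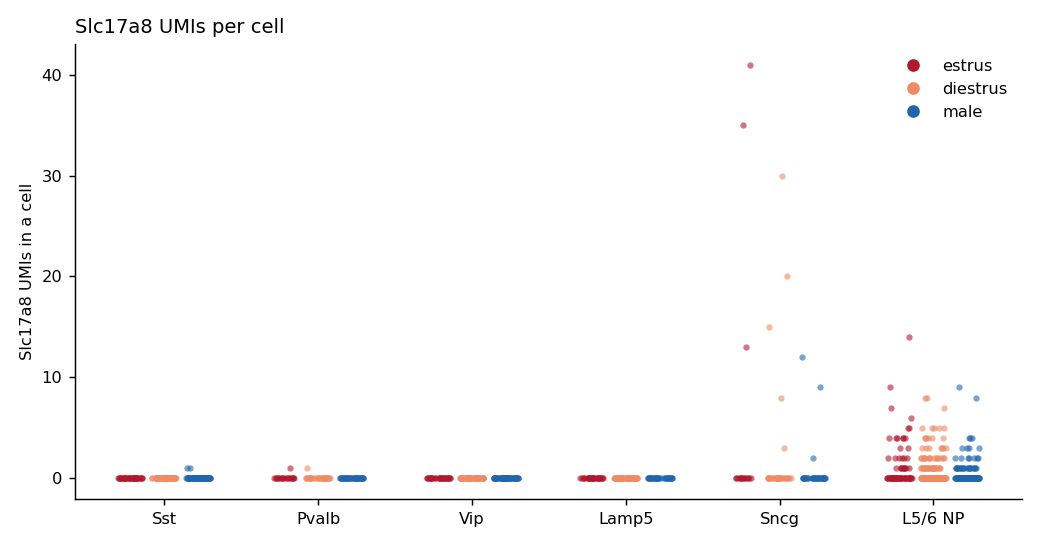
Slc17a8 UMIs in each cell (vertical axis, 1 dot per cell) for 5 GABAergic subclasses and L5/6 NP, by library. In Sncg a few cells hold up to 41 UMIs and the rest none, while in L5/6 NP the UMIs are spread over many cells.

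The difference between libraries in Sncg Slc17a8, 0.66 on the log2 scale for estrus over diestrus and 1.98 for estrus over male, rests on those few cells. It stood where 35.8% and 32.8% of the genes measured in Sncg were past 1.5-fold in those pairs and 4.45% in diestrus over male. Within NP, the log2 ratios of Slc17a8 were 0.13, 0.30 and 0.17 for estrus over diestrus, estrus over male and diestrus over male. When cells were instead assigned 1 by 1 on summed marker UMIs, they were -1.03, -1.10 and -0.07, so the direction within NP was not stable.

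Gad1 and Gad2, the GABA-making enzymes, were detected in nearly all GABAergic neurons. Gad1 stood at 1011, 1079 and 1012 CPM (3604, 4561 and 4000 UMIs) and Gad2 at 1353, 1313 and 1186 CPM. A Gad1 UMI was found in 95.1%, 92.9% and 89.8% of the cells, 81.3%, 84.9% and 81.8% after thinning, and Gad2 in 98.6%, 91.7% and 87.6%, or 90.6%, 81.8% and 87.0% after thinning. In microglia Gad1 was found in 1.56%, 5.96% and 4.85% of cells. Both enzymes were seen together in 76.3%, 71.1% and 71.9% of thinned GABAergic neurons, where the product of their shares was 73.7%, 69.4% and 71.2%.

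Lamp5-like neurons, which include neurogliaform cells, were the highest for both enzymes. Gad1 there was 1985, 2035 and 2177 CPM and Gad2 2507, 2465 and 2883 CPM. The other subclasses came in different orders for the 2 genes, and for Gad1 the intervals of Sncg and Vip overlapped in estrus and those of Pvalb and Sncg in diestrus. Gad1 was ordered from Pvalb (1060, 1015 and 1319 CPM) through Sncg (847, 955 and 839 CPM) and Vip (794, 795 and 674 CPM) to Sst (631, 576 and 560 CPM). Gad2 was instead higher in Sst (1246, 1108 and 1116 CPM) than in Vip (1030, 797 and 746 CPM), Pvalb (977, 875 and 854 CPM) and Sncg (906, 968 and 921 CPM). The ratio of Gad1 to Gad2 UMIs put these orders together: it was lowest in Sst, at 0.506, 0.520 and 0.502, and highest in Pvalb, at 1.09, 1.16 and 1.55. Lamp5 (0.792, 0.825 and 0.755), Vip (0.771, 0.998 and 0.904) and Sncg (0.934, 0.986 and 0.911) lay between, so that Sst was lowest with an interval apart from the rest in all 3 libraries. The Pvalb interval overlapped that of Sncg in estrus and those of Sncg and Vip in diestrus.

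**Figure D3:**
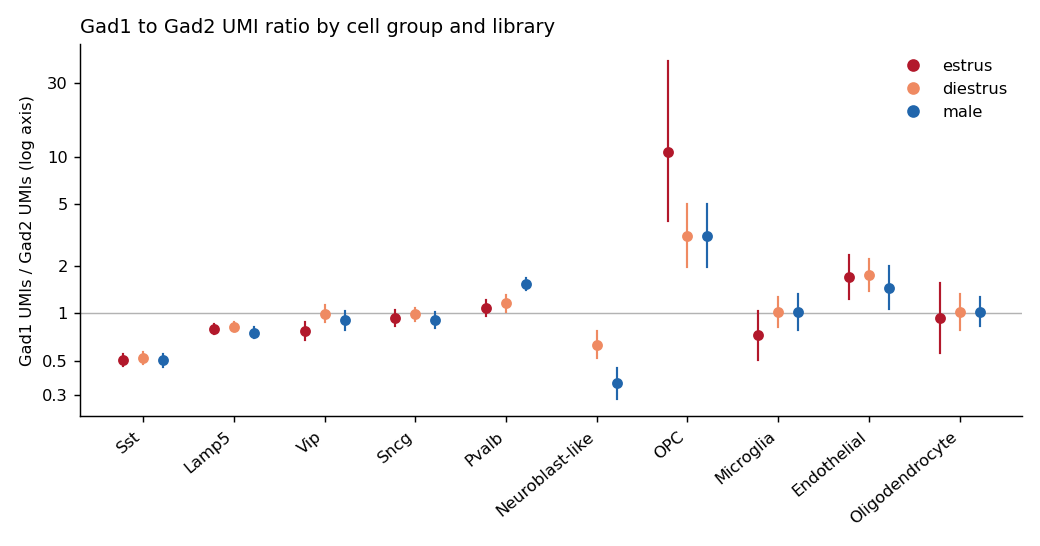
Ratio of Gad1 to Gad2 UMIs (log axis) by cell group and library, with 95% intervals. Sst lies near 0.5 in all 3 libraries, Pvalb between 1.09 and 1.55, and OPCs between 3.11 and 10.75.

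Slc32a1, which loads GABA into vesicles, varied less between subclasses than the enzymes did. Its class level was 330, 261 and 297 CPM, with a UMI in 92.3%, 82.9% and 75.6% of GABAergic neurons and in 54.7%, 48.4% and 50.6% of thinned ones. Pvalb stood at 380, 320 and 345 CPM, Lamp5 at 353, 269 and 341 CPM, and Sncg at 371, 263 and 304 CPM. Sst (295, 247 and 291 CPM) and Vip (278, 221 and 189 CPM) were lower, and most neighbours in this order had overlapping intervals. Relative to Gad2, Slc32a1 was lowest in Lamp5, where the UMI ratio was 0.141, 0.109 and 0.118, against 0.390, 0.366 and 0.404 in Pvalb and 0.410, 0.271 and 0.330 in Sncg. Lamp5 thus led for both enzymes and not for the transporter.

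Few glutamatergic neurons carried GABA genes. Their Gad1, Gad2 and Slc32a1 UMIs summed to 305, 553 and 228, and 2, 9 and 1 cells with 10 or more held 73.1%, 47.4% and 8.77% of them. Those cells had median doublet scores of 0.107, 0.137 and 0.108 against 0.077, 0.082 and 0.079 in the other glutamatergic neurons, and the part of doublets was not tested. Slc17a7 and Gad1 were seen together in 0.371%, 0.827% and 0.921% of thinned glutamatergic neurons.

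Slc6a11, the GABA transporter known mainly from astrocytes, was at 411, 364 and 365 CPM in astrocytes (3048, 1821 and 2469 UMIs). It was found in 78.5%, 68.0% and 58.3% of them, a decline that was absent after thinning, at 65.6%, 61.6% and 65.7%. Microglia held 1.19, 2.37 and 2.06 CPM, with a UMI in 0.611%, 1.05% and 0.653% of cells. A smaller astrocyte cluster with fewer UMIs per cell (medians of 1962, 1588 and 1214 against 5437.5, 5337 and 4295) held less of it, at 198, 243 and 262 CPM against 406, 358 and 365 CPM with mitochondrial genes in the total.

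Some neurons also held Slc6a11 above the free RNA level. L6 CT was at 19.2, 27.9 and 29.8 CPM, L5/6 NP at 20.5, 27.8 and 24.9 CPM and L6 IT at 14.2, 18.7 and 17.1 CPM. L5 ET, at 2.82, 2.68 and 2.88 CPM, and L4/5 IT, at 4.04, 4.14 and 3.35 CPM, were within the free RNA range over the 6 classes named above, which reached 6.63, 5.10 and 6.48 CPM. GABAergic subclasses also differed, with Lamp5 at 28.4, 31.9 and 28.1 CPM, Vip at 16.8, 17.1 and 27.8 CPM and Sncg at 11.2, 14.3 and 20.1 CPM. Sst was at 4.81, 6.66 and 4.88 CPM and Pvalb at 14.5, 6.999 and 3.12 CPM, on 3 to 8 UMIs each. Pvalb in estrus and diestrus and Sst in diestrus had values above the free RNA range, and the others were within it. The intervals of those above reached into that range, at 6.26 to 28.6 and 1.91 to 17.9 CPM for Pvalb and 2.88 to 13.1 CPM for Sst. So did that of Sncg in estrus, at 4.52 to 23.2 CPM on 7 UMIs, and Vip in estrus rested on 8 UMIs. A Slc6a11 UMI was in 33.7%, 37.2% and 28.2% of L6 CT neurons, and in 6.31%, 6.20% and 7.91% of thinned ones. The summed level of 8 astrocyte markers in glutamatergic neurons was 66.1, 79.4 and 91.1 CPM, against 7097, 6068 and 6346 CPM in astrocytes, and the part of astrocyte RNA in neuronal Slc6a11 was not tested. The deep-layer subclasses other than L5 ET thus held more than the upper and middle-layer ones in each library, with L2/3 IT in the middle at 10.0, 13.2 and 10.4 CPM.

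OPCs held Gad1 above both background classes, with less difference from them in Gad2. Gad1 in OPCs was 34.9, 48.8 and 63.8 CPM (43, 81 and 84 UMIs), which was 11 times (interval 7.20 to 16.6), 3.20 times (2.42 to 4.2) and 4.06 times (3.04 to 5.41) the microglial level of the same library. A Gad1 UMI was in 20.6%, 29.8% and 28.3% of OPCs, that is 32, 64 and 63 cells, and in 11.5%, 11.7% and 18.3% of thinned OPCs against 0.769%, 3.66% and 3.73% of thinned microglia. Gad2 in OPCs, at 3.24, 15.7 and 20.5 CPM, was 0.743, 1.05 and 1.34 times microglia, at 4.37, 14.9 and 15.3 CPM, with every interval reaching across 1, and Slc32a1 was at 0, 0.60 and 2.28 CPM. Of the OPCs with Gad1, 1, 6 and 2 had Gad2 as well. Slc17a7 in OPCs, at 13, 31.3 and 60.01 CPM, was below the microglial level.

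The Gad1 to Gad2 ratio in OPCs was 10.75 (3.91 to 41.2), 3.12 (1.98 to 5.05) and 3.11 (2 to 4.99), above the 0.747, 0.822 and 0.854 of GABAergic neurons and the 0.727, 1.02 and 1.03 of microglia. Endothelial cells, a second class taken as background, had ratios of 1.70, 1.76 and 1.46, so background classes did not share 1 ratio. Ependymal cells in diestrus had a ratio of 4.5 (1.48 to 18.3) on 18 Gad1 and 4 Gad2 UMIs, so a ratio above that of GABAergic neurons was not seen in OPCs alone. OPC Gad1 was 5.76, 2.85 and 3.53 times the endothelial level and OPC Gad2 0.913, 1.61 (1.01 to 2.48) and 1.66 (1.03 to 2.62) times. With cells assigned 1 by 1 on marker UMIs, 36, 36 and 64 OPCs were left, with 3, 5 and 10 Gad1 UMIs (15.3, 24.8 and 28.8 CPM with mitochondrial genes in the total) and 0, 6 and 2 Gad2 UMIs, so that the excess of Gad1 over Gad2 was not seen in diestrus. Of the 9 GABAergic markers, 4 were at 20 CPM or more in OPCs of each library. The markers summed to 5787, 6543 and 4855 CPM in OPCs and 5595, 10365 and 8170 CPM in GABAergic neurons. Dlx6os1 was at 0 in estrus OPCs and Lhx6 at 0 in male OPCs. In estrus the sum was higher in OPCs than in GABAergic neurons, while Gad1, Gad2 and Slc32a1 were far lower. The sum is therefore no measure of interneuron RNA in OPCs, and the part of interneuron RNA in OPC Gad1 was not tested. Committed oligodendrocyte precursors held 1.95, 8.80 and 4.81 CPM of Gad1, less than OPCs in each library.

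**Figure D4:**
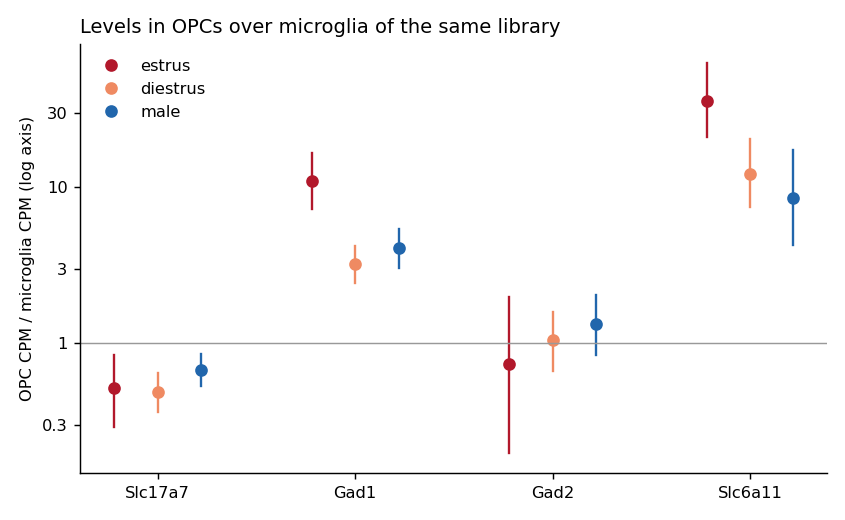
OPC level divided by microglial level of the same library (log axis) for Slc17a7, Gad1, Gad2 and Slc6a11, with 95% intervals. Gad1 lies between 3.20 and 11 in the 3 libraries, Gad2 near 1 and Slc17a7 below 1.

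Slc6a11 in OPCs was 42.2, 28.9 and 17.5 CPM (52, 48 and 23 UMIs), or 35.4, 12.2 and 8.48 times microglia. The summed level of the astrocyte markers moved with it in estrus, at 469, 157 and 163 CPM in OPCs, with 5, 3 and 2 of 8 markers at 20 CPM or more and the marker Agt at 0 in diestrus and male OPCs. The part of astrocyte RNA in this result was not tested.

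Neuroblast-like cells, named by markers of immature neurons, were 141 cells in diestrus, 139 in male and 5 in estrus. In diestrus and male they had the GABA genes at a lower level than the GABAergic class as a whole. Genes that led the group included Top2a and Cenpf, genes of dividing cells, so dividing cells may be among them. Dlx1 was a marker both of this group and of the GABAergic class, which bears on finding GABA genes here. Gad2 was 254 and 289 CPM in diestrus and male, Gad1 161 and 103 CPM and Slc32a1 27.3 and 22.5 CPM. The Gad1 to Gad2 ratio was 0.633 and 0.358, and Slc32a1 to Gad2 0.107 and 0.0780, both below the ratios of the GABAergic class, though Sst had a lower Gad1 to Gad2 ratio than diestrus neuroblasts (0.520) and Lamp5 in diestrus a Slc32a1 to Gad2 ratio of 0.109. At least 1 of the 3 GABA genes was seen in 102 of 141 cells (72.3%) and 94 of 139 cells (67.6%). Slc17a6 was at 16.0 and 20.5 CPM in 8 and 9 cells, of which 3 and 3 also held a GABA gene.

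Ratios between libraries were read for each gene in the class that carries it. Taking the glutamatergic class for the Slc17 genes, the GABAergic class for Gad1, Gad2 and Slc32a1, and astrocytes for Slc6a11, 5 of the 7 genes were at 20 CPM and 100 UMIs or more, the minimum for a ratio to be read, and 2 (Slc17a6 and Slc17a8) were below it. None of the 5 was past 1.5-fold in any of the 3 pairs. Slc17a6, below the minimum, was lower in estrus, as given above. In estrus over diestrus, 6.1% of all measured genes were past it in glutamatergic neurons, 13.6% in GABAergic neurons and 10.8% in astrocytes. In estrus over male these shares were 10.5%, 13% and 12.4%, and in diestrus over male 0.87%, 1.59% and 1.57%. Most measured genes were inside 1.5-fold too, so this count does not set the 5 genes apart. The pairs share libraries and are not independent.

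Slc17a7 had log2 ratios of 0.03 (0.01 to 0.05) for estrus over diestrus, 0.09 for estrus over male and 0.06 for diestrus over male. Gad1 had -0.09, -0.00 and 0.09, and Gad2 0.04, 0.19 and 0.15. With edgeR's TMM scaling Gad1 in estrus over male was 0.09. Slc32a1 had the widest range of the 5 at 0.34 (0.22 to 0.46), 0.15 and -0.18. Short genes were higher in estrus as a class: with all genes split into 5 equal bins of gene length, the genes in the bin of Slc32a1 had medians of 0.35, 0.31 and -0.02, so its ratio over diestrus equalled theirs. Slc6a11 had 0.18 (0.09 to 0.26), 0.17 (0.10 to 0.25) and -0.01, where genes of its length bin had -0.16, -0.06 and 0.10.

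**Figure D5:**
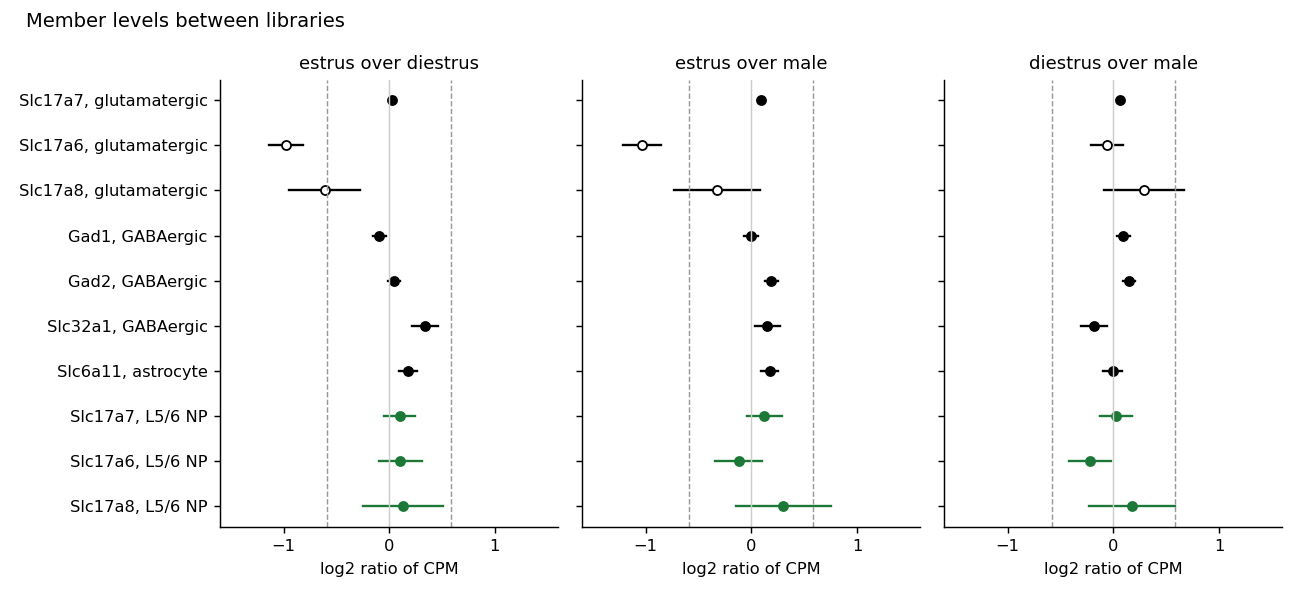
Log2 ratio of CPM between libraries (horizontal axis, no CPM added) for each gene in its class and, in green, in L5/6 NP, with 95% intervals; open symbols are below the minimum of 20 CPM or 100 UMIs, and dashed lines mark 1.5-fold. The 5 measured genes lie inside the dashed lines, while Slc17a6 in the glutamatergic class lies beyond them and in L5/6 NP does not.

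In astrocytes, OPCs and L6 CT some ratios that passed the minimum were past 1.5-fold. Slc17a7 in astrocytes was lower in estrus, at 22.8, 60.1 and 71.4 CPM, with log2 ratios of -1.36 over diestrus and -1.6 over male, and in OPCs it was lower in diestrus than in male, at -0.92, where 5.86% of measured genes were past 1.5-fold. Free Slc17a7 in microglia, given above, was lowest in estrus and highest in male too. Gad1 in OPCs was lower in estrus than in male, at -0.85, where 12% of measured genes were past 1.5-fold, and free Gad1 in microglia was lower too, at 3.18 CPM against 15.7. Slc6a11 in L6 CT was lower in estrus than in male, at -0.61, where 5.82% were past it (4.51% and 1.08% in the other pairs). In L5/6 NP neither Slc17a6 nor Slc17a8 was past 1.5-fold in any pair, where 7.79%, 8.37% and 1.99% of measured genes were. Within Pvalb, Gad1 was at -0.32 for estrus over male and -0.38 for diestrus over male.

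The other 21 genes of glutamate and GABA handling, a list of genes for the metabolism, breakdown and uptake of both transmitters, gave the setting. In glutamatergic neurons 12 of the 21 were measured. Their median log2 ratios were -0.07, -0.08 and 0.01, against 0.02, 0.01 and -0.00 over all measured genes, and 2 were past 1.5-fold: Slc1a2, a glutamate transporter best known from astrocytes, at 445, 678 and 614 CPM (-0.61 for estrus over diestrus), and Slc38a2, a glutamine transporter, at 47.4, 65.9 and 72.0 CPM (-0.59 for estrus over male). Of all genes measured in this class, 6.1% were past 1.5-fold in estrus over diestrus and 10.5% in estrus over male. With TMM scaling Slc1a2 and Slc38a2 were inside 1.5-fold (-0.55 and -0.48). Got1, an aspartate aminotransferase, was past it in estrus over male with TMM (0.54 without and 0.65 with it). In GABAergic neurons 14 were measured and none was past 1.5-fold, where 13.6%, 13% and 1.59% of all measured genes were. The medians were -0.02, -0.03 and -0.07, against 0.01, -0.04 and -0.03 over all genes. Abat, which breaks GABA down, was at 214, 177 and 188 CPM in GABAergic neurons.

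In astrocytes 16 of the 21 were measured, with medians of 0.01, 0.14 and 0.01 against -0.01, -0.05 and -0.04 over all genes. Past 1.5-fold, 1 was higher and 1 lower in estrus over diestrus, and 1 higher and 2 lower in estrus over male. Of all measured genes 10.8% and 12.4% were past it in those pairs. The higher gene, not reported here by name, was the same in both and stayed past 1.5-fold with TMM scaling. Slc38a1, a glutamine transporter, was lower in estrus than in diestrus, at 52.0, 103 and 74.5 CPM (-0.97). The aspartate aminotransferases Got1 and Got2 were lower in estrus than in male (-0.68 and -0.65, but -0.55 and -0.52 with TMM scaling, inside 1.5-fold). Glul, glutamine synthetase, was at 2520, 1802 and 1771 CPM, and its ratio of estrus over male was inside 1.5-fold at 0.51 and past it with TMM scaling at 0.64. In OPCs 12 were measured, and 5 were past 1.5-fold higher in estrus than in diestrus, among them Glul (1.5) and Slc1a2 (0.86). Of all measured genes 13.3% were past it in that pair. In estrus over male 4 were past it and higher in estrus, where 12% of measured genes were past it. The astrocyte marker sum given above was higher in estrus OPCs too, and its part was not tested.

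Over 71 sums of 30 or more cells in 27 groups, the genes whose level was most like each of the 7 were found by Pearson's r of log2 level, given as a description since sums share libraries. Slc17a7 was most like Neurod6, Neurod2 and Nrgn (r of 0.95 each), genes of forebrain excitatory neurons that were also among the markers used to name the glutamatergic class. Gad2 was most like Slc32a1 (0.97), Gad1 and Dlx6 (0.95 each), and Gad1 most like Gad2 (0.95), Slc32a1 (0.94) and Dlx6 (0.92). Slc17a6 was most like Trhr (0.80), Hs3st4 (0.77) and Traip (0.74), and Slc17a8 like Trhr (0.63), Htr2c and Nxph3 (0.59 each). Trhr, the receptor of thyrotropin-releasing hormone, was first for both, and Trhr is 1 of the 6 markers by which L5/6 NP was named and Hs3st4 1 of the 6 of L6 CT. Slc6a11 was most like Scg3 (0.82), Igdcc4 (0.80) and Gm3764 (0.79). Between the glutamate transporters, Slc17a7 had an r of 0.54 with Slc17a6 and of 0.11 with Slc17a8.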

How the data were processed

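Raw UMI counts for each gene in each barcode were deposited by the authors, not normalized. The submitters' processing notes name Cell Ranger 3.0.2 and mm10, but Cell Ranger 7.0.0 is named per the file headers. Cell calling and the use of introns or strand in counting are not stated in the labels or headers. The 3 matrices held 152291602 (estrus), 144738154 (diestrus) and 115632520 (male) UMIs.

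Barcodes with under 500 genes (970, 1986 and 2111) or over 15% mitochondrial UMIs (526, 1211 and 1100) were removed, then those with a Scrublet doublet score above 0.3 (682, 726 and 779). Cells were clustered with scanpy 1.11.5 (2000 variable genes, 30 principal components, 15 neighbours, Leiden resolution 1 in igraph 0.11.9), and neurons again into subclasses. The 7 genes and the 21 pathway genes were left out of the variable genes and the marker sets. Clusters that were removed for mixed markers held 257, 364 and 936 cells and unnamed clusters 272, 2395 and 1815. The doublet limit and settings for naming clusters were set after the clusters were seen. The genes and lists were chosen with earlier results of these data known.

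Counts were summed per group and library and divided by the total over nuclear genes (CPM). Log2 ratios carry 1 CPM on each side, and their intervals are those of the ratio without it. A gene was measured from a mean of 20 CPM and 100 UMIs over the 2 libraries, and called past 1.5-fold. With 1 library per group there is no p-value. Named genes were the 7, the pathway list (some of its genes are not reported here by name), class markers and the 3 most correlated genes (of those reaching 50 CPM in at least 1 sum). Ratio calculations were tested on simulated data. edgeR 4.0.16 gave TMM factors as an alternative scaling only.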

Additional observations from a re-analysis of the deposited data

How the results depend on the processing

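No paired analysis was possible because each group had 1 library, so no library could be left out either. Of 249 alternative log2 ratios in the class that carries each gene, 210 stayed within the counting interval of the main value. The other 39 left it, and the largest shift from a main value was 0.84. No main ratio above the minimum was past 1.5-fold, so a reversed call could not occur, and changes of sign were not counted. Of 66 such ratios in L5/6 NP, 64 stayed within the interval. The other 2 left it, Slc17a8 at -1.03 and -1.10 with cells assigned 1 by 1. In NP the largest shift from a main value was 1.39. In the class that carries it no gene above the minimum passed 1.5-fold in any pair under the alternatives, except that with no minimum on CPM or UMIs the count was 1 in estrus over diestrus and 1 in estrus over male, the gene being Slc17a6. Keeping the removed sub-clusters, an alternative chosen after seeing the data, put Slc17a6 in the glutamatergic class at -0.77 and -0.64, and left the count at 0. With cells assigned 1 by 1 on marker UMIs, the Gad1 to Gad2 ratio was 0.3004, 0.367 and 0.426 in Sst, 1.31 (estrus) and 1.35 (diestrus) in Pvalb, and 0.868 (estrus) and 0.822 (male) in Lamp5, and the Slc17a6 to Slc17a7 ratio in male NP neurons was 0.514. At Leiden resolution 0.5 the Sst ratio was 0.572 in diestrus and 0.552 in male. Sst stayed lowest of these 3 subclasses in both cases. The gated OPC ratio could not be given, since under 20 UMIs were left, and gated OPC Gad1 was lower, at 15.3, 24.8 and 28.8 CPM. TMM scaling moved all ratios of estrus over male by 0.11 in glutamatergic neurons and 0.14 in astrocytes, and put Slc6a11 there at 0.31. With it the count of pathway genes past 1.5-fold in glutamatergic neurons in estrus over diestrus was 0 in place of 1, and that in astrocytes in estrus over male 2 in place of 3. Shares of cells with a UMI, or with both of 2 genes, left the interval of the main value in 51 of 81 values. These values came from other thinning depths, cells assigned 1 by 1 or a doublet score limit of 0.2. Depth limits the low genes: Slc17a6 in L5 ET and Slc17a8 in GABAergic neurons rest on few cells.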

Other observations

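Genes of the glutamate and GABA list were also found outside neurons and astrocytes. Slc6a13 (GAT2), a GABA and taurine transporter known from the meninges, was at 1310, 697 and 329 CPM in fibroblast-like cells of estrus, diestrus and male (32, 152 and 98 cells) and at 72.3, 74.8 and 70.8 CPM in pericytes. Slc1a1 (EAAC1), a glutamate and cysteine transporter, was at 195, 239 and 169 CPM in endothelial cells and at 151, 184 and 185 CPM in OPCs. Slc38a3, a glutamine transporter of the blood-brain barrier and of astrocytes, was at 121, 128 and 107 CPM in endothelial cells. Slc38a2 was at 222, 1022 and 2278 CPM in fibroblasts, the opposite order to Slc6a13, and both rest on 1 library per group and on few estrus cells.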
